A study of Mus musculus with 34 samples.

Results

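The genes described here are 10 targets of the transcription factor p53: Cdkn1a, Ccng1, Btg2, Phlda3, Mdm2, Bax, Bbc3, Trp53inp1, Gdf15 and Zmat3. They were taken by name from a list that was drawn up with earlier results of these data known, and all 10 were found among the 37583 genes of the deposited tables. All 10 were also among the 16813 genes tested in mRNA, that is, genes with a scaled value of at least 10 in at least 3 of the 6 mRNA libraries.

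The samples were livers of mice 45 days old, of an F1 background of C57Bl6 and CBA, kept on standard chow. One group was labelled wild type (WT). The other group carried the genotype Setd8lox/lox-Alb-Cre (KO), in which exon 7 of Setd8 is floxed and Cre is driven by the albumin promoter, which is active in hepatocytes. Setd8, listed in the tables as Kmt5a and also called PR-Set7, encodes the enzyme that adds the first methyl group to lysine 20 of histone H4. The labels do not say whether WT animals carried a floxed allele or Cre, and liver cells without albumin-driven Cre would keep the gene. There were 3 WT and 3 KO libraries of poly(A) mRNA. For nascent RNA there were 2 assays, with 1 library of each genotype. In the EU assay, animals received 25 mg per kg of ethynyl uridine 30 min before death and labelled nuclear RNA was captured. In the Br assay, isolated nuclei were run on for 3 min with Br-UTP. Chromatin and input made up the other 24 of the 34 samples and were not analysed here. Replicates of mRNA are numbered in the labels without mention of separate animals, and the p-values therefore reflect a library-to-library spread that may be technical.

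p53 is a transcription factor that is kept low by the ubiquitin ligase Mdm2 and accumulates when DNA is damaged, when replication is disturbed or under other stress. It binds a site made of a pair of half-sites and raises transcription of genes that stop the cell cycle, repair DNA, alter metabolism or start apoptosis. In hepatocytes, which rarely divide in the adult, Cdkn1a is a widely used readout of this response.

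Sequences around the start sites are shown because the members share the regulator by name, and the promoter is where a match to its motif can be printed. RefSeq promoter windows (GRCm38.p6), from 250 bases before to 50 bases after a start site, were given for 8 of the 10 members and not for Trp53inp1 or Zmat3. Matches to the p53 half-site consensus, which is 10 bases long and reads the same on both strands, are in capitals, with 20 bases of flank on each side, 5′ to 3′ on the gene's strand. The first 3 lines hold a pair of half-sites with 1 mismatch and a spacer of at most 1 base, and the fourth holds a single half-site with no mismatch.
Cdkn1a, chr17:29090908-29090967, + strand: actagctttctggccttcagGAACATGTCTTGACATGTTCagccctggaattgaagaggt
Ccng1, chr11:40755442-40755501, − strand: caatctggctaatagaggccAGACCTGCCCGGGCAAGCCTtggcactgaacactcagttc
Bax, chr7:45467070-45467130, − strand: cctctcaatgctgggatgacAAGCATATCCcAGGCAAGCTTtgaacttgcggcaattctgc
Mdm2, chr10:117710915-117710964, − strand: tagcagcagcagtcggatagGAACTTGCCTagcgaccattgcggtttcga

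The Cdkn1a pair lay at -51 to -32 from the start site, the Ccng1 pair at -195 to -176, the Bax pair at -212 to -192 and the Mdm2 half-site at -186 to -177. Cdkn1a also held a half-site with no mismatch at -73 to -64 in the same window. Its second window, chr17:29093519-29093818, lies downstream and held no such pair or half-site. Each distance is from the start site of the window that holds the match. The closest pairs in the other windows of Bbc3 had 4 and 6 mismatches. Its closest pair of all, at -97 to -78 in its first window, had 3 mismatches and is printed for comparison.
Bbc3, chr7:16309466-16309525, + strand: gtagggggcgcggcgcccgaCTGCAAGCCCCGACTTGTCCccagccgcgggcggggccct
The windows of Phlda3, Btg2 and Gdf15 held neither kind of match. None of the printed matches overlaps an annotated exon. That of Bbc3 lies in an intron of the GENCODE gene, and the others lie upstream of their genes.

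A pair with at most 1 mismatch was found in 3 of the 8 members (37.5%), in 3 of 30 other p53 target genes with a window (10.0%), and in 0.211% of the 27025 genes with a window. A half-site with no mismatch was found in 4 of the 8 members (50.0%), in 10 of the 30 others (33.3%) and in 9.55% of all genes. A match is a description of these letters, and its absence says nothing of sites elsewhere in a gene.

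**Figure D1:**
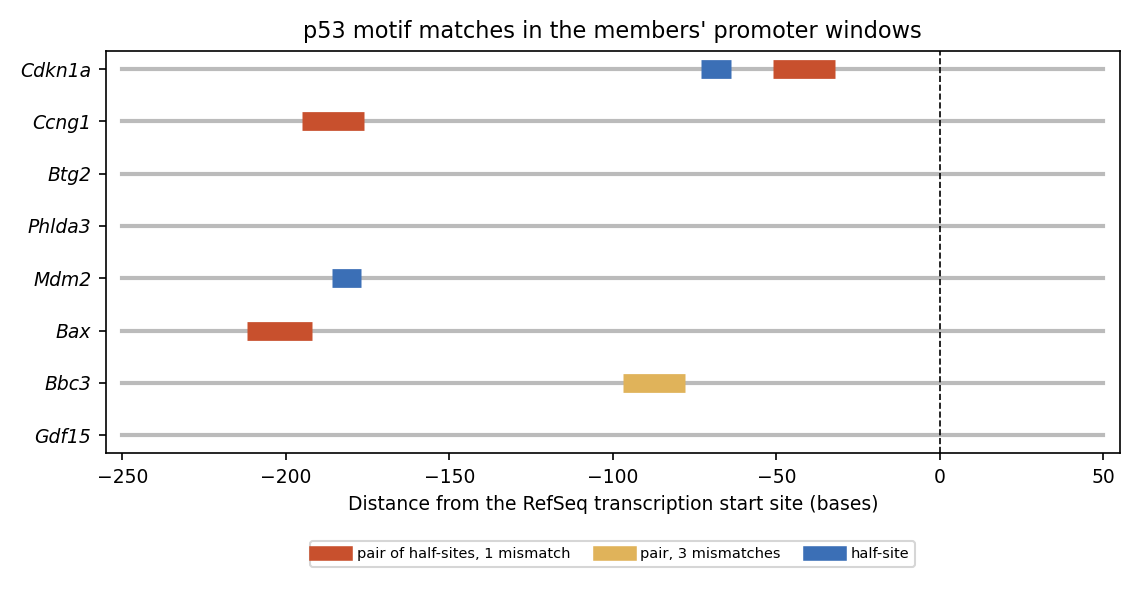
Positions of p53 motif matches in the promoter windows of 8 p53 target genes, as distance in bases from the RefSeq start site (dashed line). Red bars are pairs of half-sites with 1 mismatch, the yellow bar is the Bbc3 pair with 3 mismatches and blue bars are single half-sites. Phlda3, Btg2 and Gdf15 hold none. The Cdkn1a pair, at -51 to -32, is the closest to the start site of its own window, and the second Cdkn1a window holds none.

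The deposited mRNA values are reads scaled between libraries, and they summed to between 18069344 and 25820906 per library. The EU libraries held 10833287 reads (WT) and 5583983 (KO), and the Br libraries 3156055 (WT) and 2317840 (KO). WT replicate 3 stood apart: 20077 genes had a value above 0 there, against 24497 to 26247 in the other 5 libraries. It also lay at 121.5 on the first principal component (43.9% of the variance), against -46.23 to -6.109 for the others. Several results, but not all, are also given without WT replicate 3. Over all genes tested, 227 were higher and 228 lower in KO at an adjusted p under 0.05 (limma, Benjamini-Hochberg over all genes, two-sided), which is 1.35% and 1.36%. The targeted gene Kmt5a read 593, 615 and 1076 in WT and 1199, 1040 and 1075 in KO (adjusted p = 0.244). Of its WT values, only that of replicate 3 lay within the KO range. A gene total includes reads from outside the floxed exon and from cells without Cre, so it does not check the deletion. The summed hepatocyte markers took 10.0% to 12.5% of the scaled total in all 6 libraries.

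In KO mRNA, 2 members rose, none fell, and 8 did not pass the test. The 2 were Cdkn1a, the cyclin-dependent kinase inhibitor p21, and Phlda3, a pleckstrin-homology protein that blocks AKT at the membrane. The background share called higher was 1.35%. No member was lower at an unadjusted p under 0.05, and neither edgeR nor DESeq2 on re-estimated reads called one lower. The median log2 difference of the 10 members was 0.92 against 0.00 over all genes tested. Without WT replicate 3 these medians were 0.78 and 0.00. Of the 10 fitted differences 9 were above 0, that of Bbc3 by only 0.002, against 8437 of 16813 genes. In 5 members (Cdkn1a, Phlda3, Mdm2, Trp53inp1 and Gdf15) all 3 KO libraries lay above all 3 WT libraries, and in no member below. Over all genes, 13.2% were separated in this way with KO higher and 12.8% with KO lower. Such shifts were not particular to the members. With KO higher, 75.0% of macrophage, 50.0% of endothelial and 30.0% of stellate markers were separated (medians 1.36, 0.42 and 0.72). The shares were 20.0% of hepatocyte, 14.3% of bile duct and 0.0% of lymphocyte markers (medians -0.13, 0.10 and 0.28). With KO lower, 10.0% of hepatocyte markers were separated and 0.0% of the others. In a bulk liver sample, a change in the share of cells that make an RNA and a change in RNA per cell cannot be told apart.

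**Figure D2:**
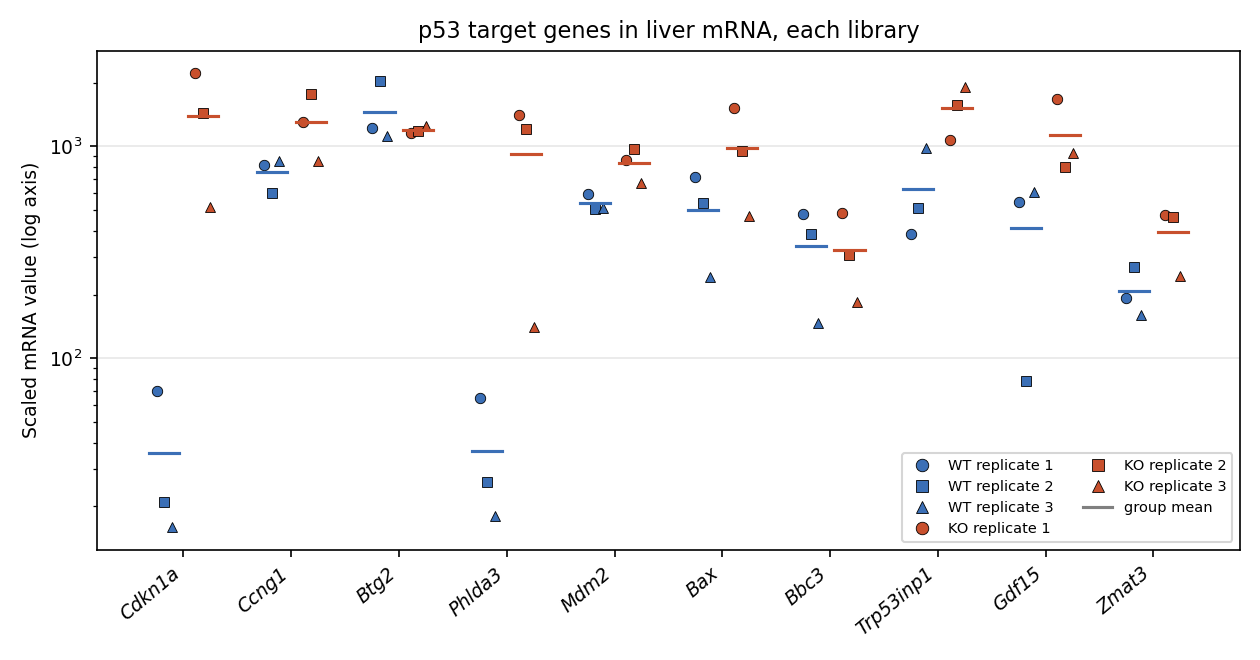
Scaled mRNA value (log axis) of the 10 p53 target genes in each library, WT in blue and KO in red, with symbols for the replicates and lines for group means. Cdkn1a and Phlda3 lie at 16 to 70 in WT and at 141 to 2210 in KO, while Bbc3 and Btg2 overlap between the groups.

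The members that restrain the cell cycle differed widely. Cdkn1a (ENSMUSG00000023067, chr17:29090976-29100727, + strand, GRCm38) read 70, 21 and 16 in WT replicates 1, 2 and 3 and 2210, 1443 and 518 in KO replicates 1, 2 and 3. Every KO library was far above every WT library, and even the lowest KO value exceeded the highest WT value. The group means were 35.7 ± 29.8 (SD, n = 3) and 1390 ± 847 (SD, n = 3). The fitted rise was 5.31 on the log2 scale of value plus 1 (SE 0.65, 95% interval 3.81 to 6.81), or 39.7-fold, at an adjusted p of 0.0108 (limma). This was rank 6 by rise among all genes tested. With 1 library left out the rise was 29.0-fold to 61.2-fold (61.2-fold without WT replicate 1 and 59.9-fold without KO replicate 3), and the call was lost without WT replicate 2 (adjusted p = 0.0559) or without KO replicate 2 (0.0639). Without WT replicate 3 it was 29.9-fold (adjusted p = 0.0167). An unclassified transcript on the opposite strand, AC167363.2, overlaps exons of Cdkn1a, and whether strand was used in counting is not given in the sources used here.

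Ccng1 (chr11:40748552-40755311, − strand) encodes cyclin G1, which recruits a phosphatase to Mdm2. It read 821, 605 and 856 in WT and 1299, 1769 and 855 in KO. KO replicates 1 and 2 were above all WT libraries, whereas KO replicate 3 fell within the WT range. The log2 difference was 0.74 (SE 0.29) and did not pass the test (adjusted p = 0.206, limma). Btg2 (chr1:134075170-134079120, − strand), an antiproliferative partner of the CCR4-NOT deadenylase, read 1222, 2027 and 1119 in WT and 1162, 1179 and 1245 in KO. Its KO libraries agreed closely and lay inside the WT range. The log2 difference was -0.23 (SE 0.25, 95% interval -0.80 to 0.33, adjusted p = 0.657).

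Phlda3 (ENSMUSG00000041801, chr1:135766119-135769136, + strand, GRCm38) read 65, 26 and 18 in WT and 1411, 1212 and 141 in KO. KO replicates 1 and 2 were alike, while KO replicate 3 was far lower and still above all WT libraries, so that the highest KO value was 10.0 times the lowest. The means were 36.3 ± 25.1 and 921 ± 683 (SD, n = 3 each). The fitted rise was 4.27 on the log2 scale (SE 0.86, 95% interval 2.29 to 6.25), or 19.3-fold, at an adjusted p of 0.0462 (limma), rank 11 by rise. The call rests close to the threshold. It was kept in 1 of 6 fits with a library left out, that without KO replicate 3 (40.5-fold, adjusted p = 0.0148), and the adjusted p lay between 0.0561 and 0.204 in the other 5, where the rise was 12.8-fold to 27.6-fold. Without a filter on low values the adjusted p was 0.174. The 2 count models run on reads re-estimated from the rounding of the scaled values also called both genes higher: edgeR with TMM scaling gave adjusted p-values of 0.0137 for Cdkn1a and 0.0338 for Phlda3, where 1.54% of all genes were called higher. DESeq2 gave 4.06e-15 and 1.41e-04, where 5.26% were.

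Mdm2 (chr10:117688875-117710758, − strand), the ubiquitin ligase that p53 induces and that degrades p53 in return, read 599, 508 and 514 in WT and 866, 970 and 672 in KO. The groups did not overlap and each was narrow, at 540 ± 50.9 and 836 ± 151 (SD, n = 3 each). The log2 difference of 0.62 (SE 0.20, 1.53-fold) did not pass the test across all genes (adjusted p = 0.141, limma).

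Of the 3 members that act in apoptosis or autophagy, none passed the test. Bax (chr7:45461697-45466898, − strand), which permeabilises the mitochondrial outer membrane, read 719, 540 and 242 in WT and 1525, 954 and 470 in KO. Both groups spread about as widely, and KO replicate 3 lay below WT replicates 1 and 2. This gave a log2 difference of 0.95 (SE 0.50, adjusted p = 0.340), and of 0.50 without WT replicate 3. Exons of Bax overlap those of Gm45808 on the same strand, so reads could be split between them. Bbc3 (chr7:16308393-16318205, + strand) encodes the BH3-only protein PUMA. It read 481, 388 and 146 in WT and 484, 306 and 185 in KO. The ranges were nearly the same, and replicate 3 was lowest in both groups. Its log2 difference was 0.00 (SE 0.49, 95% interval -1.14 to 1.14, adjusted p = 0.999), an interval that leaves room for a change of more than 2-fold either way.

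Trp53inp1 (chr4:11156431-11174379, + strand) encodes a stress protein of p53 signalling and autophagy. It read 386, 512 and 983 in WT and 1076, 1572 and 1904 in KO. The groups did not overlap, although WT replicate 3 came near the lowest KO library. The log2 difference was 1.35 (SE 0.36, 2.55-fold, adjusted p = 0.0911, limma). Without WT replicate 3 it was 3.32-fold and passed the test (adjusted p = 0.0103), and DESeq2 on all 6 libraries called it too (adjusted p = 0.0129). In the fit without WT replicate 3 the members called higher were again 2, Cdkn1a and Trp53inp1, since Phlda3 had an adjusted p of 0.0737 there. That fit called 4.74% of all genes higher.

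The secreted and RNA-binding members also missed the threshold. Gdf15 (chr8:70629393-70632456, − strand), a secreted stress cytokine of the TGF-beta family, read 549, 78 and 606 in WT and 1678, 797 and 932 in KO. WT replicate 2 was far below the other WT libraries, and all KO libraries were above all WT libraries. The log2 difference was 1.86 (SE 0.73, 3.62-fold, adjusted p = 0.207, limma), and without WT replicate 2 it was 1.86-fold. Zmat3 (chr3:32334792-32366014, − strand), a zinc-finger protein that binds RNA, read 192, 271 and 160 in WT and 476, 462 and 245 in KO. KO replicates 1 and 2 were above all WT libraries and KO replicate 3 was below WT replicate 2. The fitted log2 difference was 0.90 (SE 0.32, adjusted p = 0.174).

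Levels of different genes were compared as scaled values per kilobase of exons (GENCODE M21 lengths). In WT the order of the mean levels per kilobase, from the highest, was Btg2 (531), Bax (318), Gdf15 (222), Ccng1 (217), Bbc3 (159), Mdm2 (106), Trp53inp1 (96.8), Phlda3 (23.3), Zmat3 (18.2) and Cdkn1a (10.0). Only Trp53inp1 and Phlda3, among neighbours in this order, had library ranges that did not overlap. In KO the order was Bax (624), Gdf15 (613), Phlda3 (591), Btg2 (436), Cdkn1a (391), Ccng1 (372), Trp53inp1 (234), Mdm2 (164), Bbc3 (153) and Zmat3 (34.5). There only Bbc3 and Zmat3 were neighbours without overlap. Cdkn1a thus had the lowest mean level of the 10 in WT, and in KO its level per kilobase, 146 to 622 over the libraries, overlapped those of 8 of the other members, all but Zmat3.

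By the likeness of their pattern over the 6 mRNA libraries (Pearson r of log2 of value plus 1, a description over libraries that share the group difference), the 5 genes most like Cdkn1a among 16812 were Spon2 (0.999), ENSMUSG00000073858 (0.999, no symbol), Mrnip (0.998), Gm5898 (0.997) and Cmklr1 (0.996). Spon2, an extracellular matrix protein, read 182, 73 and 65 in WT and 1850, 1371 and 805 in KO. It alone of the 5 passed the test. Among the other members, r with Cdkn1a was 0.971 for Phlda3 (rank 107), 0.955 for Mdm2 (rank 228) and 0.834 for Zmat3 (rank 1327), and the lowest was -0.44 for Btg2.

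The libraries of a group did not share 1 order across the members. KO replicate 3 was the lowest KO library in 7 of the 10 members and KO replicate 1 the highest in 6, and WT replicate 3 was the lowest WT library in 6. Divided by the WT mean of each gene, the median of the 10 members was 2.00 in KO replicate 1, 2.08 in KO replicate 2 and 1.21 in KO replicate 3, against 0.769 to 1.22 in the WT libraries. Trp53inp1 and Btg2 ran the other way, with their highest KO values in KO replicate 3.

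Some markers of other liver cells also differed between the groups, namely 4 that passed the test, all higher in KO (background 1.35%). These were 2 of 12 macrophage, 1 of 10 stellate and 1 of 7 bile duct markers, against 0 of 10 endothelial and 0 of 10 lymphocyte markers. Of the macrophage markers, 11 had a difference above 0 and those that rose were 2 (Csf1r, the receptor of macrophage colony-stimulating factor, and Cd14, the lipopolysaccharide co-receptor). Their summed value was 5384 to 5960 in WT and 12236, 16430 and 8476 in KO replicates 1, 2 and 3. The summed stellate-cell markers, of which 9 of 10 tested had a difference above 0 and Pdgfrb rose, went from 3526 to 5004 in WT to 6500 to 8344 in KO. Those of the bile duct, of which 5 of 7 tested were above 0 and Spp1 rose, went from 853 to 1318 in WT to 1484 to 2367 in KO. The median log2 difference of the 7 was only 0.10, so the sum does not stand for the typical bile duct marker. Endothelial sums were 7569 to 8290 in WT and 8373 to 9049 in KO, and lymphocyte sums 190 to 274 in WT and 163 to 557 in KO. None of the 61 markers was at 0 in any library. Each of these 4 calls was lost in 4 or 5 of the 6 fits that dropped 1 library. The fit lacking WT replicate 3 called 6 macrophage, 3 stellate, 2 endothelial and 1 bile duct marker, all higher. Its background was larger too, at 4.74% of genes called higher, against 1.35% in the fit of all 6 libraries. KO replicate 3, in which most members were lowest, also had the lowest KO sums of macrophage, stellate, bile duct and lymphocyte markers. The part of these cells in the members' differences was not tested.

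**Figure D3:**
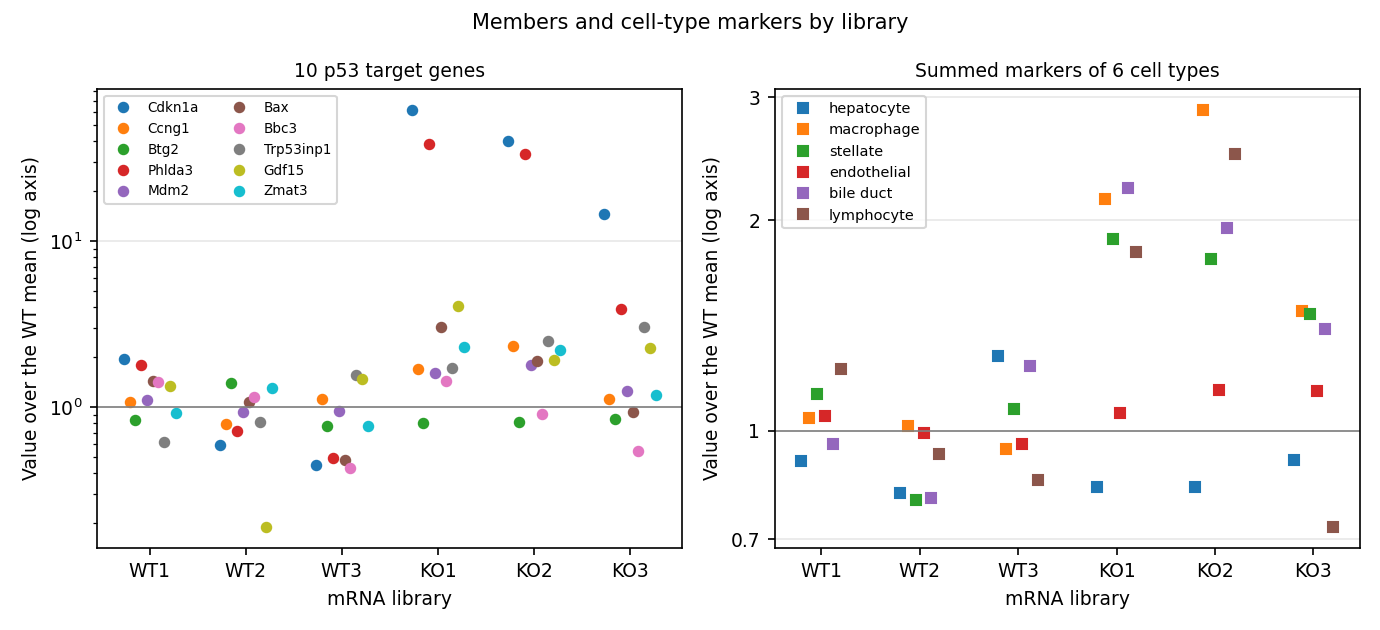
Scaled mRNA values divided by the WT mean (log axes) in each of the 6 mRNA libraries, for the 10 p53 target genes on the left and for the summed markers of 6 liver cell types on the right. Macrophage markers stand at 2.14, 2.88 and 1.48 times the WT mean in the 3 KO libraries, and Cdkn1a at 62.0, 40.5 and 14.5.

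Nascent RNA was compared between 1 WT and 1 KO library in each assay, so these ratios have no replicate check and no test. Each is the log2 ratio of reads per total reads, centred on the median gene with at least 20 reads, with an exact 95% Clopper-Pearson interval that covers counting error only. The median before centring was -0.02 in EU (15131 genes) and 0.00 in Br (15449 genes). More than 2-fold higher in KO were 2 members in EU and 3 in Br, where 24.9% and 7.49% of all genes were. More than 2-fold lower were 1 member in EU and 0 in Br, where 23.2% and 7.01% of all genes were. The members' share in EU is thus near the background in either direction. The members' median ratio was 0.44 in EU and 0.58 in Br, and 8 of 10 members in EU and 10 of 10 in Br were above 0. Among cell-type markers, 9 of 10 stellate and 4 of 5 bile duct markers were more than 2-fold higher in EU, and 1 and 0 lower. In Br 6 of 10 and 3 of 5 were higher, and 0 lower. Of 9 macrophage markers, 5 were higher and 2 lower in EU, and 0 higher and 1 lower in Br. The part of these cells in the nascent ratios was not tested.

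Cdkn1a and Phlda3, the members that rose in mRNA, were the highest of the 10 in both nascent assays. Cdkn1a had 0 reads in the WT and 96 in the KO library of EU, and 121 and 469 reads in Br. Against a floor of 3 reads in the WT library the EU ratio was at least 63.0-fold higher in KO, or 50.2-fold at the lower end of the counting error of the KO reads. In Br it was 5.29-fold (log2 2.40, interval 2.11 to 2.70). The 2 assays thus differed in WT, where Cdkn1a had 0 of 10833287 EU reads and 121 of 3156055 Br reads. Phlda3 had 0 and 25 reads in EU, 16.4-fold higher in KO with 3 WT reads put in (counting interval from 12.4-fold upward). In Br it had 11 and 50 reads, a ratio of 6.21-fold (log2 2.63, interval 1.67 to 3.72).

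Gdf15 was the third member past 2-fold in Br. It had 170 reads in WT and 499 in KO there, 4.01-fold higher (log2 2.00, interval 1.75 to 2.26), and in EU only 17 and 11 reads, a log2 ratio of 0.35 with an interval of -0.89 to 1.53. The EU depth could not show whether Gdf15 differed. Bax went in opposite directions: 40 reads in WT and 6 in KO in EU (log2 -1.76, interval -3.29 to -0.51), and 90 and 128 in Br (log2 0.96, interval 0.56 to 1.36). With a ratio of 3.39-fold lower in KO it was the only member past 2-fold downward in EU, on 46 reads in all.

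Mdm2 was well covered in both assays, and its counting intervals overlapped. It had 1248 reads in WT and 1022 in KO in EU (log2 0.69, interval 0.57 to 0.81), and 412 and 415 in Br (log2 0.46, interval 0.26 to 0.66), beside 0.62 in mRNA. Trp53inp1 had the most reads of the 10 in EU, 5531 in WT and 3266 in KO (log2 0.22, interval 0.15 to 0.28), and 361 and 425 in Br (log2 0.69, interval 0.48 to 0.89). Both values were below its mRNA difference of 1.35. Zmat3 had 510 and 481 reads in EU (log2 0.89, interval 0.71 to 1.07) and 70 and 71 in Br (log2 0.47, interval -0.03 to 0.97).

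Ccng1 had a log2 ratio of 0.31 in EU (1125 and 711 reads, interval 0.18 to 0.45) and 0.34 in Br (232 and 215 reads, interval 0.06 to 0.61). Btg2 was higher in KO in EU (464 and 339 reads, log2 0.52, interval 0.32 to 0.73) and near 0 in Br (283 and 209 reads, log2 0.01, interval -0.25 to 0.27). Bbc3, with the smallest difference in mRNA, was within counting error of the median gene in both, at -0.16 in EU (136 and 62 reads, interval -0.61 to 0.29) and 0.26 in Br (234 and 205 reads, interval -0.02 to 0.53).

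**Figure D4:**
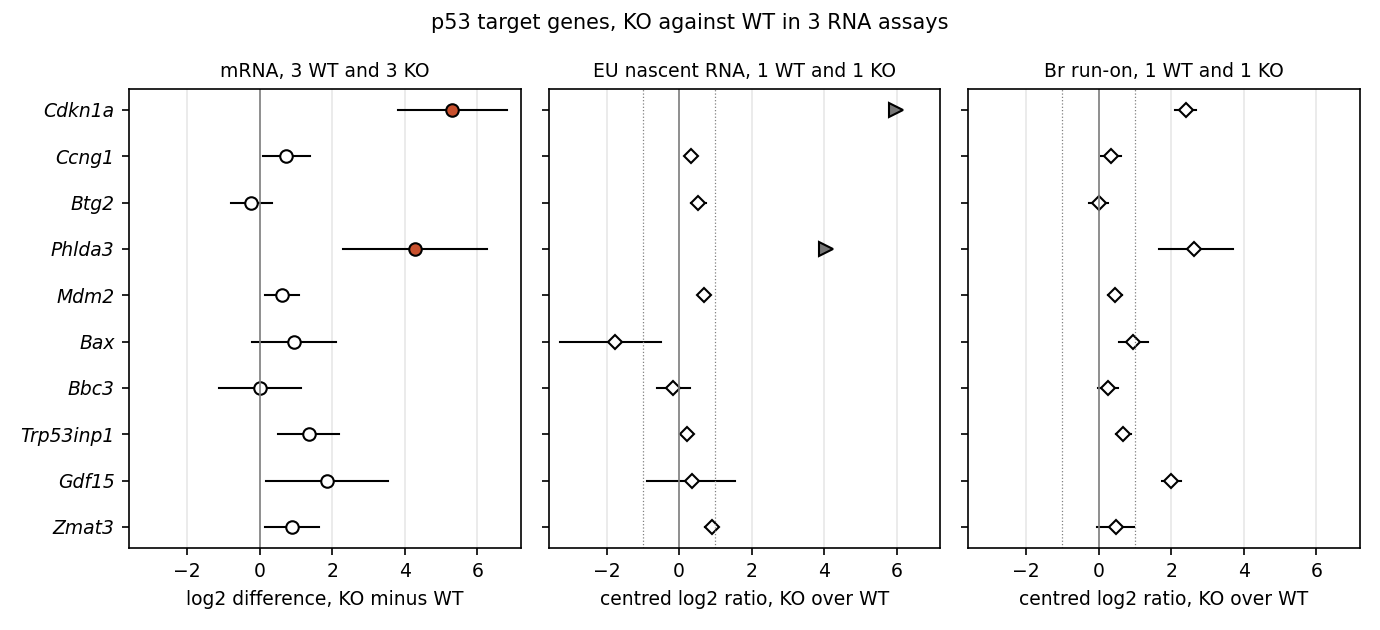
Differences between KO and WT on log2 scales for the 10 p53 target genes: mRNA with 95% intervals from limma (filled where the adjusted p is under 0.05), and EU and Br nascent RNA with 95% counting intervals (dotted lines at 2-fold). Grey arrowheads are lower bounds for genes with 0 WT reads. Cdkn1a and Phlda3 are the rightmost in each panel, and Bax lies at -1.76 in EU and 0.96 in Br.

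A second list of 37 p53 target genes was read in the same way. All 37 were tested in mRNA, and 1 rose (background 1.35%), 0 fell and 36 did not pass the test. The median log2 difference was 0.33 (0.25 without WT replicate 3), and 25 of the 37 were above 0. The gene that rose was Gtse1, a microtubule-associated protein of the late cell cycle that carries p53 out of the nucleus. Gtse1 read 18, 21 and 17 in WT and 176, 195 and 53 in KO, with no overlap and the lowest KO value again in replicate 3. The rise was 2.65 on the log2 scale (SE 0.51, 6.29-fold, adjusted p = 0.0392, limma). It was lost without WT replicate 1, WT replicate 2, KO replicate 1 or KO replicate 2, up to an adjusted p of 0.202, at 4.99-fold to 9.51-fold over all 6 fits (9.51-fold without KO replicate 3).

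In 10 of the 37 all KO libraries were above all WT libraries (27.0%, against 13.2% of all genes), and in 2 all were below (5.41%, against 12.8%). The following are named because of this separation, after their values were seen. Beside Gtse1, the 9 higher ones were Aen, Apaf1, Eda2r, Ei24, Epha2, Plk2, Polk, Psrc1 and Sesn2. Eda2r, a receptor of the TNF receptor family, read 14, 18 and 9 in WT and 101, 190 and 37 in KO (log2 2.67, SE 0.60, adjusted p = 0.0586). Aen, an exonuclease of apoptosis, read 440, 280 and 376 in WT and 1345, 1200 and 586 in KO (log2 1.45, SE 0.34, adjusted p = 0.0628). Sesn2, a stress sensor upstream of mTORC1, read 244, 161 and 141 in WT and 536, 383 and 307 in KO (log2 1.17, SE 0.29, adjusted p = 0.0758). Psrc1, a spindle protein, read 4, 10 and 9 in WT and 453, 231 and 15 in KO, so that KO replicate 3 was close to WT.

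The 2 lower ones were Gadd45a and Sesn1, a growth-arrest protein and a relative of Sesn2. Gadd45a read 188, 345 and 200 in WT and 99, 101 and 45 in KO (log2 -1.60, SE 0.39, adjusted p = 0.0704). Sesn1 read 298, 331 and 359 in WT and 165, 231 and 236 in KO (log2 -0.66, SE 0.22, adjusted p = 0.151). The 2 sestrins thus had fitted differences of opposite sign, neither of which passed the test. Without WT replicate 3, Aen, Eda2r, Epha2 and Gtse1 were called higher and Fdxr and Gadd45a lower, in a fit that called 4.74% of all genes higher and 5.17% lower. DESeq2 called 6 higher (Aen, Eda2r, Epha2, Gtse1, Psrc1 and Sesn2) and 1 lower (Gadd45a), where 5.26% of all genes were called higher and 5.48% lower.

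**Figure D5:**
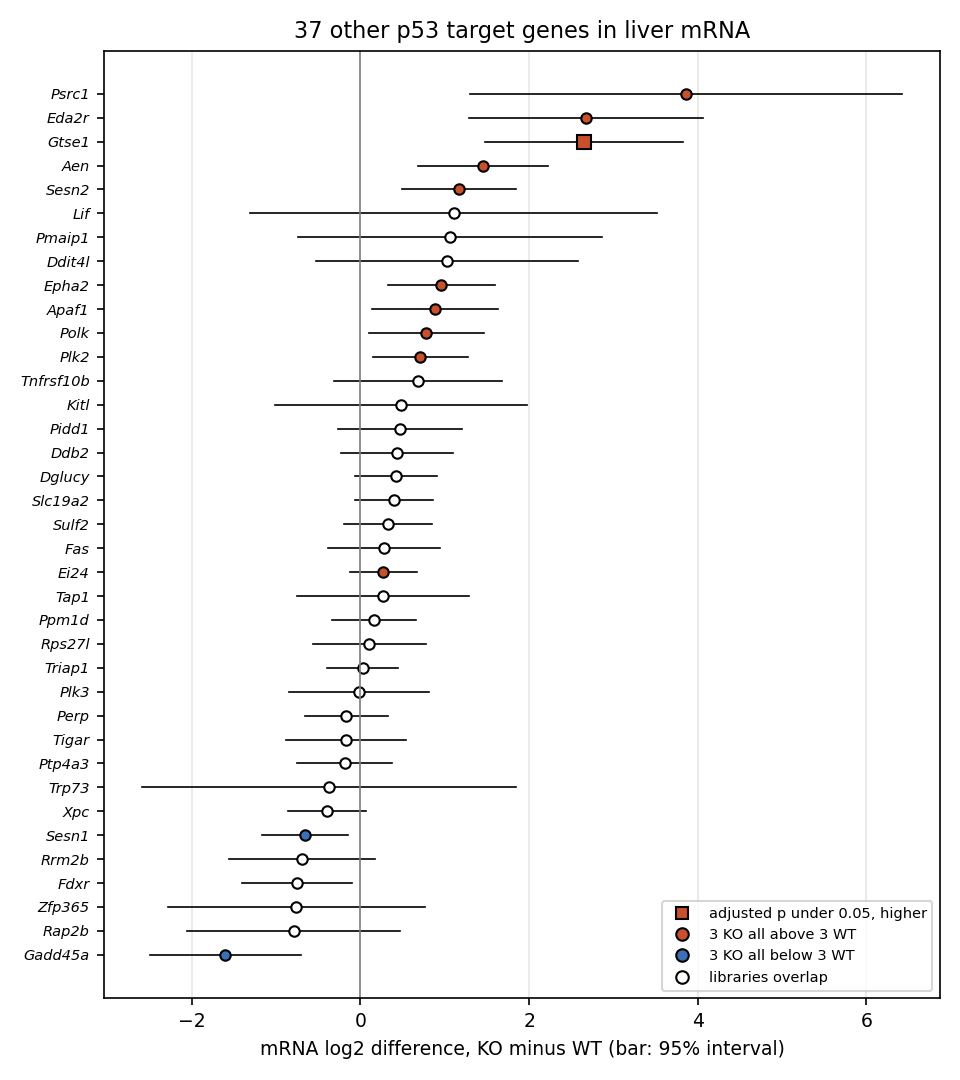
mRNA log2 difference between KO and WT, with 95% intervals from limma, for 37 other p53 target genes ordered by the difference. The square marks Gtse1, the gene with an adjusted p under 0.05, at 2.65. Red symbols are the 10 genes with all KO libraries above WT, and blue symbols are Sesn1 and Gadd45a, with all KO libraries below.

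In nascent RNA the same list was higher by more than 2-fold for 16 of 34 genes in EU (47.1%, against 24.9% of all genes) and for 4 of 31 in Br (12.9%, against 7.49%). It was lower for 5 in EU (14.7%, against 23.2%) and for 2 in Br (6.45%, against 7.01%). Gtse1 was past 2-fold in both, with 16 and 238 reads in EU (log2 4.87, interval 4.14 to 5.70) and 14 and 25 in Br (log2 1.29, interval 0.29 to 2.34). Eda2r had 0 and 135 reads in EU, 88.5-fold higher in KO with 3 WT reads put in (counting interval from 71.0-fold upward). In Br it had 11 and 7 reads, under the minimum of 20. Gadd45a, which had an mRNA log2 difference of -1.60 that did not pass the test, had 28 and 67 reads in EU (log2 2.23, interval 1.58 to 2.93) and 117 and 65 in Br (log2 -0.40, interval -0.86 to 0.05).

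Genes that set p53 activity did not pass the test in mRNA. Of 17 listed, 16 were tested, 0 were called in either direction by limma, by edgeR, by DESeq2 or in the fit without WT replicate 3, and the median log2 difference was -0.02. Among them 1 had an unadjusted p under 0.05 with KO higher (Prkdc) and 1 with KO lower (Cop1). Trp53, which encodes p53, read 407, 287 and 452 in WT and 423, 376 and 326 in KO. The ranges overlapped fully (log2 -0.01, SE 0.23, 95% interval -0.54 to 0.52). In nascent RNA Trp53 had 174 and 138 reads in EU (log2 0.64, interval 0.31 to 0.97) and 103 and 117 in Br (log2 0.63, interval 0.24 to 1.03). Of 15 regulators, 2 were more than 2-fold higher in EU and 2 lower (13.3% each, against 24.9% and 23.2% of all genes). In Br 1 of 15 was higher (6.67%, against 7.49%) and 0 lower (against 7.01%). Atr was higher in both, with 811 and 976 reads in EU (log2 1.24, interval 1.11 to 1.38) and 6 and 34 in Br (log2 2.95, interval 1.68 to 4.49). The lower ones in EU were Chek1 (29 and 7 reads) and Ppp1r13l (58 and 0). Mdm4, the relative of Mdm2 that also restrains p53, had a log2 mRNA difference of -0.04 (SE 0.26). Cdkn2a, whose product Arf inhibits Mdm2, was below the filter, at 11, 11 and 1 in WT and below 10 in every KO library. In nascent RNA it had 0 WT and 18 KO reads in EU and 7 and 7 in Br, under the minimum of 20. It is not described further.

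The cyclins, kinases and PCNA that the Cdkn1a product binds held 2 genes that rose among 11, and 0 that fell (background 1.35% and 1.36%). Cdk1, the mitotic kinase, read 42, 26 and 20 in WT and 370, 383 and 89 in KO (8.07-fold, log2 3.01, SE 0.58, adjusted p = 0.0393, limma). Ccna2, cyclin A2, was 5.54-fold higher (log2 2.47, SE 0.51, adjusted p = 0.0491). Both calls were lost without WT replicate 1, WT replicate 2, KO replicate 1 or KO replicate 2, up to adjusted p-values of 0.190 and 0.230. Without KO replicate 3 the rise of Cdk1 was 13.0-fold. In EU nascent RNA 6 of the 11 were more than 2-fold higher (54.5%, against 24.9% of all genes) and 2 lower (18.2%, against 23.2%). In Br 2 of 10 (Ccna2 and Ccnd1) were higher (20.0%, against 7.49%) and 0 lower (against 7.01%). The median mRNA difference of the 11 was 0.02, and 7 were above 0. In limma 1 had an unadjusted p under 0.05 with KO lower. Cdk2 (log2 0.02, SE 0.23) and Cdk4 (log2 0.02, SE 0.23) were near 0. Cdk1 and Ccna2 act in S phase and mitosis and had their lowest KO values in replicate 3, as Cdkn1a did.

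Of the other CDK inhibitors, Cdkn2c rose (background 1.35%) and the other 2 tested did not pass. Cdkn2c, the inhibitor p18 of the cyclin D kinases, read 172, 110 and 76 in WT and 548, 527 and 410 in KO (4.32-fold, log2 2.11, SE 0.31, adjusted p = 0.0182). The call was lost without WT replicate 2, KO replicate 1 or KO replicate 2 (up to 0.107). Cdkn1b and Cdkn1c, the closest relatives of Cdkn1a, had log2 differences of 0.03 (95% interval -0.40 to 0.45) and -0.30 (95% interval -1.17 to 0.56). Both mRNA intervals end below the lower end of that of Cdkn1a, 3.81. In EU nascent RNA, Cdkn1c had 0 and 40 reads, at least 26.2-fold higher in KO (20.4-fold at the lower end of the counting error). Cdkn1b had 1130 and 219 there (log2 -1.39, interval -1.61 to -1.18). In Br the log2 ratios were -0.01 for Cdkn1c (interval -1.04 to 0.98) and 0.185 for Cdkn1b (interval -0.10 to 0.47).

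Among 13 BCL2 family genes, which include the partners of Bax and Bbc3, 1 rose and 0 fell in the limma test of all 6 libraries. The background was 1.35% and 1.36%, and the median of the list was 0.03. The one that rose was Bak1, the second pore-forming protein beside Bax, at 227, 174 and 246 in WT and 551, 464 and 472 in KO (2.31-fold, log2 1.21, SE 0.21, adjusted p = 0.0294). Leaving out any library but WT replicate 3 took it over the threshold, up to 0.150, with the rise between 2.09-fold and 2.48-fold. Bik, a BH3-only protein, read 242, 275 and 307 in WT and 121, 149 and 139 in KO (log2 -1.004, SE 0.21, adjusted p = 0.0509). It was called lower by DESeq2 (adjusted p = 9.77e-04, where 5.48% of all genes were called lower) and without WT replicate 3 (adjusted p = 0.0398, where 5.17% were). In EU nascent RNA 4 of 11 BCL2 family genes were more than 2-fold higher (36.4%, against 24.9% of all genes) and 3 lower (27.3%, against 23.2%). In Br 0 of 11 were past 2-fold in either direction (against 7.49% higher and 7.01% lower). None of the 4 relatives of Btg2 tested (Btg1, Btg3, Tob1 and Tob2) passed the test in limma, edgeR or DESeq2, and 0 had an unadjusted p under 0.05, with a median of -0.10 and Btg3 the only one above 0. Of the relatives of Phlda3, Phlda1 was tested and read 2252, 17608 and 5740 in WT and 2118, 5197 and 1113 in KO (log2 -1.40, SE 0.77, adjusted p = 0.359), a spread too wide to place it.

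Since Gdf15 and Sesn2 are also induced by the integrated stress response, 12 genes of that response were read beside them. Vldlr, a lipoprotein receptor, rose 2.52-fold (log2 1.33, SE 0.28, adjusted p = 0.0495) and lost the call on leaving out any library but WT replicate 3 (up to 0.163). Vldlr was the only 1 of the 12 that rose in the limma test (background 1.35%). None fell, and the median was 0.23. DESeq2 called 2 of the 12 higher (Vldlr and Sesn2) and 1 lower (Atf3, adjusted p = 0.0219). It called 5.26% of all genes higher and 5.48% lower. Atf4, the central factor, and Ddit3, its target CHOP, had log2 differences of -0.56 (SE 0.25) and -0.10 (SE 0.25), and neither passed the test. In nascent RNA, 5 of 11 of these genes were more than 2-fold higher in EU (45.5%, against 24.9% of all genes) and 3 of 11 in Br (27.3%, against 7.49%), while 1 and 0 were lower. Vldlr was higher in both, with 6 and 99 reads in EU (log2 5.02, interval 3.85 to 6.5) and 4 and 33 in Br (log2 3.49, interval 2.00 to 5.45). Atf5 was too, with log2 ratios of 2.09 in EU (interval 1.82 to 2.37) and 1.25 in Br (interval 1.05 to 1.44). Asns, asparagine synthetase, had 41 and 1126 reads in EU (54.0-fold) and too few in Br. Fgf21, a liver hormone, had 19 and 370 reads in Br (26.6-fold) and too few in EU. Ddit3 was the one lower in EU, at a log2 ratio of -1.58 (interval -2.28 to -0.93), and stood at 0.06 in Br. These nascent ratios have no replicate check.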

How the data were processed

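In the mRNA files the unit is a score, namely reads after the authors' DESeq scaling and rounding to whole numbers, per the submitters' processing notes and from the values. The nascent files hold counts of reads per gene as deposited. All Br counts are even and were divided by 2. The authors also deposited RPKM for the nascent libraries, used only as an alternative because the gene lengths implied by it are far from exon lengths (82 for Mdm2 against 5083). The submitters' processing notes name the genome mm9 and, without a role, SICER, MACS2, DESeq, Cufflinks, Bowtie2 and TopHat2. The counter, annotation and strand setting are not given in the sources used here.

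Symbols came from GENCODE M21 (32860 of 37583 identifiers matched), with Cop1 and Trf found through older names and 2 list names, Cdkn2d and Bcl2a1d, without a row. Coordinates are GRCm38 throughout. The mRNA test was limma-trend (limma 3.58.1, R 4.3.3, robust eBayes) with group as the only term. It used log2(score + 1) and a two-sided threshold of 0.05 on p-values adjusted by Benjamini-Hochberg over all genes tested. Fold changes are on that scale and understate changes of low genes. Reads for edgeR 4.0.16 and DESeq2 1.42.0 were re-estimated from the rounding step, which makes them approximate, and lay between 15640274 and 27108827 per library. Counting intervals and floors used SciPy. The script was tested on simulated data.

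Members, lists and marker genes were chosen with earlier results of these data known. The rule for names was all members, the called genes of each other list (up to 4 a direction), the 5 genes most like Cdkn1a, and Kmt5a. Further genes are named as examples chosen after their values were seen. Some genes are in more than 1 list. The alternatives tried were other tools and scalings, pseudocounts of 0.5 and 10, other filters, a replicate block, array weights, each library left out, and, for nascent RNA, RPKM, no centring and a minimum of 100 reads. Same-numbered WT and KO libraries had correlations of deviations of 0.409, -0.242 and 0.198, so the numbers were not taken to pair the samples.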

Additional observations from a re-analysis of the deposited data

How the results depend on the processing

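The main count of 2 members called in mRNA became 1 without a filter on low values (30020 genes tested), 4 with the replicate block and 8 higher with array weights, and ranged from 0 to 2 with 1 library left out. The count of other p53 targets called, 1, became 2 with edgeR (TMM or RLE scaling), 7 with DESeq2, 4 without a filter, 5 with the replicate block and 22 with array weights, and ranged from 0 to 6 with 1 library left out. Over all genes, the 227 called higher and 228 lower became 884 and 921 with DESeq2, 500 and 514 with the replicate block and 4250 and 4160 with array weights. Leaving out WT replicate 3 gave 797 and 869, and leaving out KO replicate 2 gave 13 and 15. The labels do not say whether the numbers pair the samples. Not every library correlated best with its own number, but correlations over 3 libraries a group cannot settle the pairing. With the block, Trp53inp1 (adjusted p = 0.0133) and Bax (0.0248) were also called. Of 160 alternative values of the members' mRNA differences, 132 kept direction and side of the threshold, 8 lost and 11 gained a call, and 9 changed sign, all of them of Bbc3 and Btg2 and none called. Bbc3, at 0.002, became -0.042 (edgeR, TMM), -0.066 (edgeR, RLE), -0.068 (DESeq2), -0.001 (pseudocount 10) and -0.380 (array weights), and ranged from -0.517 to 0.353 with 1 library left out. Btg2 ranged from -0.397 to 0.031 with 1 library left out, the highest without WT replicate 2, and array weights called it lower. In nascent RNA, a minimum of 100 reads left 0 EU members past 2-fold upward, since Cdkn1a and Phlda3 have fewer reads, and RPKM plus 2 lowered their EU ratios to 4.69 and 2.77 on the log2 scale. The causes of the other changes were not tested. EU depth limits Cdkn1a, Phlda3, Gdf15 and Bax, with at most 96 reads in a library.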
